A study of Mus musculus with 9 samples.

Results

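The genes of mitochondrial fatty acid oxidation and the tricarboxylic acid (TCA) cycle were followed in mammary tumours and normal mammary glands of mice. The set was defined by function, with earlier results of these data known. It holds 40 genes of the 22180 that a single-symbol probe set represented on the array. Only Suclg2 had more than 1 probe set, and its brighter probe set was used. All 40 genes passed the filter on low values and were tested, among 17478 genes in all.

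Expression was measured in bulk mammary tissue of 9 female FVB mice, with 1 Mouse Gene 2.0 ST array per mouse and 3 mice per group. The groups were metastatic mammary tumours of MMTV-Wnt1 mice (genotype Wnt1+/-), non-metastatic mammary tumours of MMTV-Wnt1 mice (genotype Wnt1+/-), and normal mammary glands of control littermates with the genotype Wild-type Wnt1. All mice, controls included, drank 6% sucrose with doxycycline at 200 µg/ml starting at 6 weeks of age, and tumours were taken at a size of 20 mm. Age at collection was 281 to 300 days for metastatic tumours, 222 to 354 days for non-metastatic tumours and 533 to 556 days for normal glands. Tumour status, genotype, age and time since doxycycline and sucrose began therefore cannot be told apart in any comparison with normal glands. In this model the promoter of mouse mammary tumour virus drives Wnt1 in mammary epithelium. The labels do not say where metastases were found.

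Fatty acids enter mitochondria as carnitine esters and are cut by the beta-oxidation cycle into acetyl-CoA units, and the electrons released pass through electron transfer flavoprotein to ubiquinone. Pyruvate enters either as acetyl-CoA through the pyruvate dehydrogenase complex or as oxaloacetate through pyruvate carboxylase, and the TCA cycle oxidises the acetyl-CoA from both sources. A normal mouse mammary gland is an epithelial tree embedded in a fat pad, so its RNA comes from epithelium and from adipocytes, including brown and beige adipocytes in some depots.

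The 9 values of each gene are log2 units after robust multi-array averaging (RMA), and array medians lay between 5.80 and 5.94. Mammary epithelium markers were present in every group: the mean log2 level of 9 such genes was 9.74 to 10.5 in metastatic tumours and 9.81 to 10.4 in non-metastatic tumours, against 8.70 to 9.77 in normal glands. Epcam, Cdh1 and Krt18, named after their values were seen, rose, which is 3 of the 9. Of all genes tested, 13.6% rose and 9.13% fell in tumours against normal glands (limma adjusted p under 0.05). The count of 3 epithelial markers became 1 without metastatic tumour 1 or 3, non-metastatic tumour 2 or normal gland 1. It was 2 without metastatic tumour 2 or normal gland 2, and 5 without normal gland 3. A count of 1 of the 9 is close to the share of all genes that rose. White adipocyte markers differed more between tissues than the other marker lists measured. Of 14 such genes, 13 fell in tumours and none rose, with a median log2 change of -4.89, and their mean level was 7.45 to 7.62 in metastatic and 7.19 to 8.48 in non-metastatic tumours, against 11.4 to 12.2 in normal glands. Adipoq, which encodes the adipocyte hormone adiponectin, measured 5.01, 5.89 and 5.69 in metastatic tumours and 7.06, 4.91 and 5.30 in non-metastatic tumours, against 11.04, 11.22 and 10.25 in normal glands. Apart from non-metastatic tumour 1, Adipoq in tumours lay within or below the range of the array medians. Brown adipocyte markers averaged 5.83 to 6.22 in metastatic and 5.94 to 6.28 in non-metastatic tumours, against 8.90 to 9.60 in normal glands, and 7 of 9 fell. Leaving out normal gland 2, described next, 13 of 14 white and 6 of 9 brown adipocyte markers fell. Normal gland 2 carried signal of other tissues. The mean of 16 skeletal muscle markers was 9.75 there, while normal glands 1 and 3 had 5.85 and 6.11. For 8 markers of differentiated epidermis the means were 10.4 there and 5.83 and 5.82 in the other normal glands. Tumours averaged 5.66 to 5.95 (metastatic) and 5.59 to 7.52 (non-metastatic) for the muscle markers, with 7.52 in non-metastatic tumour 3 and 6.91 in non-metastatic tumour 1. For the epidermis markers they averaged 5.77 to 6.37 (metastatic) and 5.83 to 7.11 (non-metastatic), highest in non-metastatic tumour 2. Some non-metastatic tumours thus exceeded normal glands 1 and 3 in these markers. Levels of 7 milk genes also varied by array, with means of 7.97 in metastatic tumour 2 and 7.70 in normal gland 2 and 10.8 to 12.6 elsewhere. None of the muscle, epidermis and milk genes passed the limma test in tumours against normal glands, nor had an unadjusted p under 0.05. Without normal gland 2, 1 of them did pass, the myoglobin gene Mb (log2 change 0.51, limma adjusted p = 0.032), named after its value was seen. Counts of genes that fell or rose against normal glands are therefore also given without it.

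Against normal glands, tumours had lower levels of nearly the whole pathway. In the comparison of both tumour groups with normal glands, 36 of the 40 genes fell, none rose, and 4 (Cpt1a, Eci2, Idh2 and Suclg2) did not pass an adjusted p of 0.05 in limma with Benjamini-Hochberg adjustment over all genes tested. Across the array, 9.13% of genes tested were lower and 13.6% higher by the same rule. The median log2 change of the 40 genes was -1.06, against 0.044 for all genes tested. For each of the 36 genes, all 6 tumours lay below all 3 normal glands, while the tumours and normal glands did not overlap, in either direction, for 26% of all genes. The decreases ranged between 1.48-fold for Sdhc and 9.86-fold for Pcx, and 22 of the 36 genes had a log2 change of -1 or lower. The tightest separation was that of Mdh2, with a gap of 0.16 log2 units between the highest tumour and the lowest normal gland, and the widest was the gap of 2.73 for Pcx.

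Adipocyte marker levels moved with this result, and their part in it was not tested. In bulk tissue, fewer cells of a type and less RNA per cell cannot be told apart. Normal gland 2 was the highest of the normal glands for all 36 genes that fell, and normal gland 3 the lowest for 32 of them. Without normal gland 2, 33 genes fell and the median log2 change was -0.90. By role, those were 2 of 3 genes of the carnitine shuttle, 8 of 9 of the beta-oxidation cycle, 2 of 3 for unsaturated fatty acids, 3 of 3 of electron transfer, 13 of 17 of the TCA cycle and 5 of 5 of pyruvate entry. The same total of 33 and the same counts by role came without normal gland 1, with a median of -1.06. The share of 9.13% lower among all genes belongs to the fit on all 9 arrays.

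**Figure D1:**
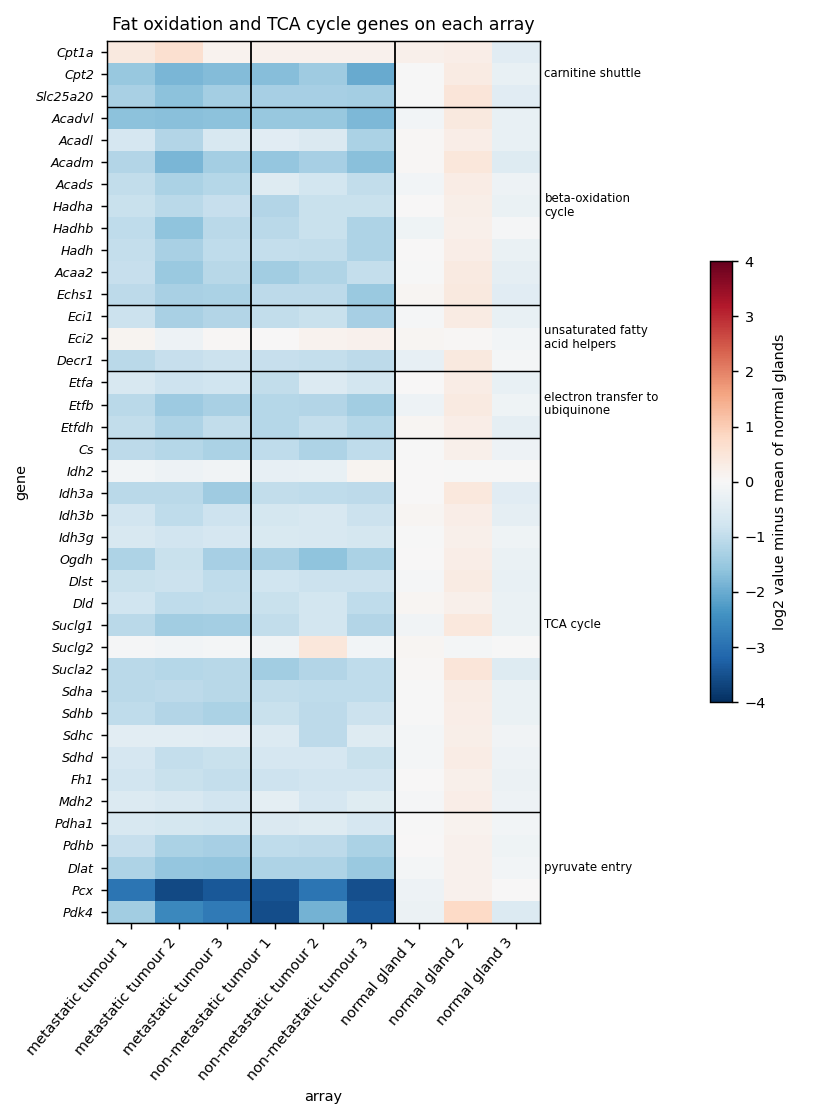
Log2 value of each of the 40 genes (rows, grouped by role) on each of the 9 arrays (columns), minus the mean of the 3 normal glands; blue is lower and red higher. All 6 tumour columns are blue for 36 genes, most deeply for Pcx and Pdk4, while Cpt1a, Eci2, Idh2 and Suclg2 stay pale or red.

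RefSeq promoter windows (GRCm38.p6, 250 bases before to 50 after a start site) were available for 36 of the 40 genes, in 42 windows. These are not the same 36 genes as those that fell. Acaa2, Decr1, Idh3a and Sdhc fell and had no window, while Cpt1a, Eci2, Idh2 and Suclg2 did not pass the test and had one. The windows are shown because most of these genes moved together and because motifs of known regulators of oxidative genes could be looked for, on both strands. GCGCATGCG, the binding motif of nuclear respiratory factor 1, which drives many genes of mitochondrial proteins, was found in windows of Acadm, Etfdh and Ogdh. That is 3 of the 36 genes, or 8.33%, against 1.95% of all genes with a window. Counted by window it is 9.52% of the 42, against 1.75% of all 32851, with the same Ogdh site counted in overlapping windows. TCAAGGTCA, the motif of estrogen-related receptors, orphan nuclear receptors active in oxidative tissue, was found for Sdhd only, in 2.38% of the 42 windows and 0.423% of all windows. A direct repeat of AGGTCA spaced by 1 base, bound by peroxisome proliferator-activated receptors, was searched with at most 1 mismatch over its 12 letters. It was found in none of the 42 windows and in 0.554% of all windows. Matches are letters in a window and not evidence of binding. The windows of Acadm (chr3:153944594-153944893, minus strand), Etfdh (chr3:79628718-79629017, minus strand) and Sdhd (chr9:50603800-50604099, minus strand) follow with the matched letters in capitals. The capitals start 159 bases before the start site in Acadm, where the motif is on the opposite strand and the capitals are its reverse complement. They start 128 bases before it in Etfdh, where overlapping matches on both strands share the capitals. In Sdhd they start 36 bases after it, again as the reverse complement of the motif. The window of Hadha (chr5:30154931-30155230, minus strand), without a match, is shown because the start sites of Hadha and Hadhb, the subunit genes of the mitochondrial trifunctional protein, lie 273 bases apart on opposite strands. Their windows share 228 bases, and both genes fell.
Acadm: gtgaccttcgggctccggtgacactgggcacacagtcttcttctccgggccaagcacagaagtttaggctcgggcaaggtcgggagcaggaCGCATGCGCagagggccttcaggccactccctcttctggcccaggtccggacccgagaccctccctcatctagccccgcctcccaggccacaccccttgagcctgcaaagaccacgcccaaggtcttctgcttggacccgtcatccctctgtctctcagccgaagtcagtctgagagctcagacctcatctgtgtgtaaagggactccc
Etfdh: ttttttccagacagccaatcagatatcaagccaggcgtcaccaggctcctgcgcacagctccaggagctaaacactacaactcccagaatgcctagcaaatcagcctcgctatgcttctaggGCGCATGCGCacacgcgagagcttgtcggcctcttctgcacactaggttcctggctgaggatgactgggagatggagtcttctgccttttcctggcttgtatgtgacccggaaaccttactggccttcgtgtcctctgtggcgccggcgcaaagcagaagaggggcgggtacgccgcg
Sdhd: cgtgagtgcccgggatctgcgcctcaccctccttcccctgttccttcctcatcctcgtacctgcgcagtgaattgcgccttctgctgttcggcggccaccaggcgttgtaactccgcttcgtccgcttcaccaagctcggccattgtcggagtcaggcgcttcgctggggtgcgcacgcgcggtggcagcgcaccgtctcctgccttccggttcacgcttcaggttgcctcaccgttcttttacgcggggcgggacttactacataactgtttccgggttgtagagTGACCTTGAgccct
Hadha: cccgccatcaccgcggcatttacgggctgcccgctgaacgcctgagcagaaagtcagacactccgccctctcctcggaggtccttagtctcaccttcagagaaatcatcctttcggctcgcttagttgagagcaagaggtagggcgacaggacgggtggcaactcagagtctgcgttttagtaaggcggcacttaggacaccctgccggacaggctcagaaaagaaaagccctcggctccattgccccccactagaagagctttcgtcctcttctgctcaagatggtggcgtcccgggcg

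The carnitine shuttle carries long-chain fatty acids across the mitochondrial membranes, and 2 of its 3 genes fell in tumours. Cpt2, the carnitine palmitoyltransferase of the inner membrane, measured 8.99, 8.67 and 8.79 in metastatic tumours and 8.80, 9.08 and 8.50 in non-metastatic tumours, against 10.49, 10.83 and 10.20 in normal glands. Every tumour was at least 1.13 log2 units below every normal gland (log2 change -1.70, SE 0.17, limma adjusted p = 0.0013). Slc25a20, the carnitine-acylcarnitine carrier, measured 8.82, 8.49 and 8.78 in metastatic tumours and 8.80, 8.80 and 8.78 in non-metastatic tumours, against 10.11, 10.61 and 9.67 in normal glands. The 6 tumours spanned 0.33 log2 units, and all lay below each normal gland (log2 change -1.38, SE 0.19, limma adjusted p = 0.0037). Cpt1a, the liver-type carnitine palmitoyltransferase of the outer membrane and the gate that malonyl-CoA inhibits, measured 9.73, 10.01 and 9.48 in metastatic tumours and 9.51, 9.52 and 9.53 in non-metastatic tumours, against 9.55, 9.61 and 8.90 in normal glands. Its tumours and normal glands overlapped, and it did not pass the test (log2 change 0.28, SE 0.18, limma adjusted p = 0.3, 95% interval -0.13 to 0.69).

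All 9 genes of the beta-oxidation cycle fell, with a median log2 change of -1.15. The first step, dehydrogenation, is split between acyl-CoA dehydrogenases by chain length. Acadvl, the very-long-chain enzyme, measured 8.58, 8.55 and 8.57 in metastatic tumours and 8.70, 8.70 and 8.41 in non-metastatic tumours, against 10.11, 10.62 and 9.92 in normal glands. The 3 metastatic tumours were nearly identical, and all tumours lay at least 1.22 log2 units below the normal glands (log2 change -1.63, SE 0.16, limma adjusted p = 0.0011). Acadm, the medium-chain enzyme, measured 10.99, 10.31 and 10.79 in metastatic tumours and 10.61, 10.81 and 10.49 in non-metastatic tumours, against 12.20, 12.60 and 11.65 in normal glands. Normal glands spread over 0.95 log2 units, yet the lowest of them exceeded the highest tumour (log2 change -1.48, SE 0.23, limma adjusted p = 0.0052). Acads, the short-chain enzyme, changed by -0.94 (SE 0.15) and Acadl, the long-chain enzyme, by -0.80 (SE 0.22). Acadl was the least stable of the 9: without normal gland 2 its limma adjusted p was 0.13, and without metastatic tumour 1, 2 or 3 or normal gland 1 it was also above 0.05, at 0.051 to 0.10.

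The later steps of the cycle are hydration, a second dehydrogenation and thiolytic cleavage. For long chains the trifunctional protein performs all of them. Its beta subunit gene Hadhb measured 5.61, 5.02 and 5.54 in metastatic tumours and 5.57, 5.73 and 5.41 in non-metastatic tumours, against 6.48, 6.85 and 6.57 in normal glands. All 6 tumours were below the lowest array median, so the Hadhb probe set was dim there and the size of its change is uncertain. Its highest tumour lay 0.74 log2 units below its lowest normal gland (log2 change -1.15, SE 0.16, limma adjusted p = 0.0038). Its partner gene for the alpha subunit, Hadha, changed by -0.98 (SE 0.13). Echs1, the short-chain enoyl-CoA hydratase, measured 9.32, 9.09 and 9.11 in metastatic tumours and 9.31, 9.33 and 8.87 in non-metastatic tumours, against 10.44, 10.74 and 9.92 in normal glands. The highest tumour was 0.59 log2 units below the lowest normal gland (log2 change -1.20, SE 0.19, limma adjusted p = 0.0058). Acaa2, the thiolase of the last step, measured 9.97, 9.41 and 9.79 in metastatic tumours and 9.50, 9.69 and 9.94 in non-metastatic tumours, against 10.89, 11.26 and 10.53 in normal glands. Metastatic tumour 1 and non-metastatic tumour 3 came closest to the normal glands, without reaching them (log2 change -1.18, SE 0.19, limma adjusted p = 0.0062). Hadh, the hydroxyacyl-CoA dehydrogenase for shorter chains, changed by -1.07 (SE 0.14).

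Unsaturated fatty acids need isomerases and a reductase before they fit the cycle. Eci1, the mitochondrial enoyl-CoA isomerase, changed by -1.09 (SE 0.17) and Decr1, the dienoyl-CoA reductase, by -0.97 (SE 0.15), and both fell. Eci2, an isomerase found in peroxisomes as well as mitochondria, measured 9.12, 8.83 and 9.06 in metastatic tumours and 9.02, 9.17 and 9.18 in non-metastatic tumours, against 9.09, 9.05 and 8.92 in normal glands. All 9 values lay within 0.36 log2 units and the groups overlapped, and Eci2 did not pass the test (log2 change 0.05, SE 0.10, limma adjusted p = 0.77, 95% interval -0.18 to 0.27). The 3 genes that pass electrons on to ubiquinone all fell. Etfb, the beta subunit of electron transfer flavoprotein, measured 8.68, 8.32 and 8.48 in metastatic tumours and 8.62, 8.59 and 8.37 in non-metastatic tumours, against 9.57, 10.12 and 9.61 in normal glands. The gap between the highest tumour and the lowest normal gland was 0.90 log2 units (log2 change -1.26, SE 0.15, limma adjusted p = 0.0025). Etfa, the alpha subunit, changed by -0.75 (SE 0.15) and Etfdh, the dehydrogenase that reduces ubiquinone, by -1.08 (SE 0.14).

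Of the 17 TCA cycle genes, 15 fell, with a median log2 change of -0.88. Ogdh, the first subunit of the oxoglutarate dehydrogenase complex, measured 10.69, 11.02 and 10.60 in metastatic tumours and 10.62, 10.32 and 10.65 in non-metastatic tumours, against 11.94, 12.18 and 11.65 in normal glands. Non-metastatic tumour 2 was lowest and metastatic tumour 2 the highest of the tumours, still 0.63 log2 units below the lowest normal gland (log2 change -1.28, SE 0.15, limma adjusted p = 0.0025). Its partner subunits Dlst, the succinyltransferase, and Dld, the dehydrogenase shared with the pyruvate complex, changed by -0.88 (SE 0.14) and -0.90 (SE 0.13). Citrate synthase, Cs, which opens the cycle, changed by -1.11 (SE 0.12). The 3 subunit genes of the NAD-dependent isocitrate dehydrogenase, Idh3a, Idh3b and Idh3g, changed by -1.11 (SE 0.18), -0.80 (SE 0.15) and -0.68 (SE 0.10). Idh3a encodes the catalytic subunit. Succinate dehydrogenase, which is also complex II of the respiratory chain, changed by -1.04 (SE 0.12) in its flavoprotein gene Sdha and -1.04 (SE 0.13) in its iron-sulphur gene Sdhb. Its membrane anchor genes Sdhc and Sdhd changed by -0.56 (SE 0.14) and -0.80 (SE 0.13). Fumarase, Fh1, changed by -0.83 (SE 0.11) and malate dehydrogenase, Mdh2, by -0.58 (SE 0.13).

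Succinyl-CoA synthetase joins a shared alpha subunit, Suclg1, with 1 of 2 beta subunits, which pair with ADP or GDP. Suclg1 changed by -1.12 (SE 0.18) and Sucla2, the beta subunit for ADP, by -1.14 (SE 0.20), and both fell. Suclg2, the beta subunit for GDP, measured 10.30, 10.22 and 10.26 in metastatic tumours and 10.18, 10.78 and 10.22 in non-metastatic tumours, against 10.41, 10.27 and 10.33 in normal glands, and did not pass the test (log2 change -0.01, SE 0.14, limma adjusted p = 0.98, 95% interval -0.33 to 0.31). Apart from non-metastatic tumour 2, the arrays lay within 0.23 log2 units of each other. A second, dimmer Suclg2 probe set averaged 5.52 in metastatic and 5.61 in non-metastatic tumours, against 5.31 in normal glands. Idh2, the NADP-dependent mitochondrial isocitrate dehydrogenase, measured 10.23, 10.12 and 10.20 in metastatic tumours and 10.00, 10.02 and 10.44 in non-metastatic tumours, against 10.34, 10.32 and 10.33 in normal glands. Its normal glands differed by only 0.02 log2 units. Non-metastatic tumour 3 lay above them and all other tumours lay below them. Idh2 did not pass the test (log2 change -0.16, SE 0.11, limma adjusted p = 0.34, 95% interval -0.42 to 0.10). Among the 15 that fell, Sdhc and Mdh2 were the least stable. Without normal gland 2 the limma adjusted p was 0.097 for Sdhc and 0.058 for Mdh2, and without normal gland 1 it was 0.063 and 0.052. Without metastatic tumour 1 or 3, that of Sdhc was 0.051 and 0.052.

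**Figure D2:**
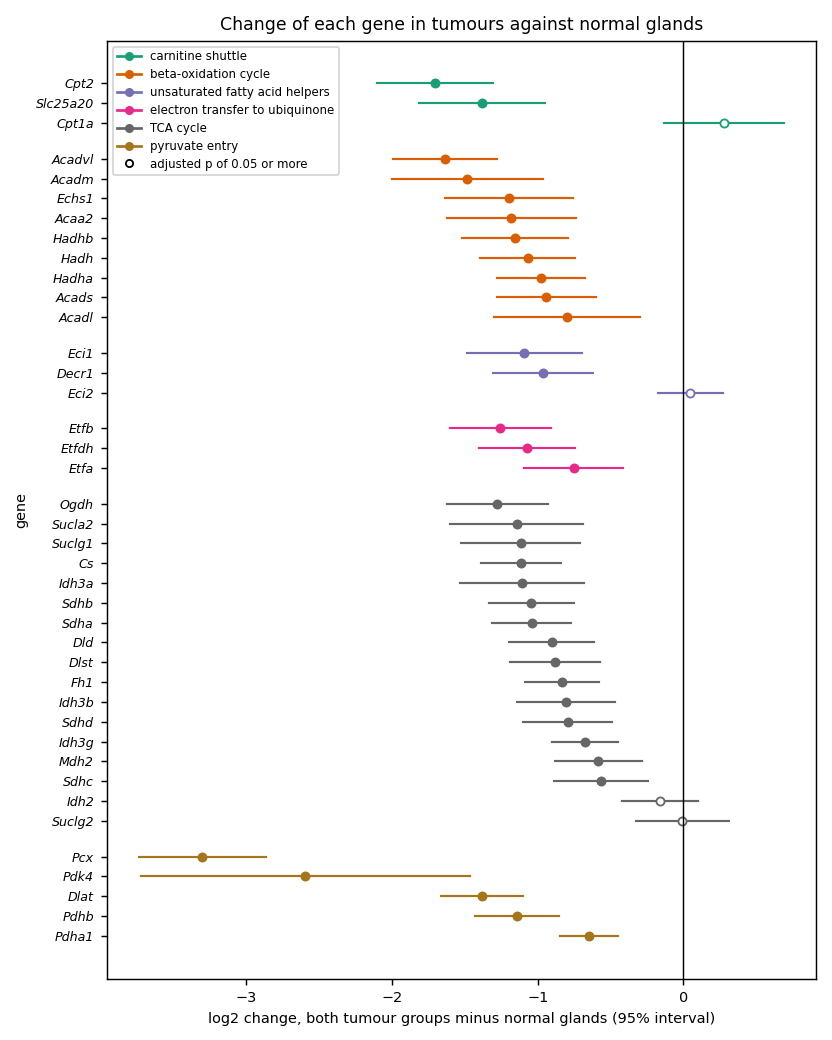
Log2 change of each of the 40 genes (rows, coloured by role) in both tumour groups against normal glands, with its 95% interval in limma; open points have an adjusted p of 0.05 or more. The 36 filled points lie left of 0, with Pcx at -3.30 and Sdhc at -0.56 at the ends, and the 4 open points have intervals that cover 0.

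The 5 genes of pyruvate entry all fell, with a median log2 change of -1.38, and they included the 2 largest decreases of the whole set. Pcx, pyruvate carboxylase, which makes oxaloacetate and is abundant in fat-storing tissue, measured 8.30, 7.62 and 7.84 in metastatic tumours and 7.78, 8.30 and 7.71 in non-metastatic tumours, against 11.03, 11.39 and 11.25 in normal glands. The 6 tumours spanned 0.68 log2 units and the lowest normal gland stood 2.73 above the highest of them. On average Pcx was 9.86-fold lower in tumours (log2 change -3.30, SE 0.19, limma adjusted p = 8.6e-05). Pdk4, the fasting-induced kinase that switches pyruvate dehydrogenase off, measured 9.59, 8.40 and 8.15 in metastatic tumours and 7.44, 9.10 and 7.62 in non-metastatic tumours, against 10.74, 11.78 and 10.42 in normal glands. Of the 40 genes it was the most variable in each group, with an SD of 0.768 for metastatic, 0.914 for non-metastatic and 0.708 for normal arrays. Tumours and normal glands still did not overlap (log2 change -2.60, SE 0.49, limma adjusted p = 0.0096). Dlat, the acetyltransferase of the pyruvate dehydrogenase complex, measured 9.14, 8.80 and 8.77 in metastatic tumours and 9.14, 9.14 and 8.89 in non-metastatic tumours, against 10.29, 10.54 and 10.25 in normal glands. The spans were 0.36 log2 units within metastatic tumours, 0.25 within non-metastatic tumours and 0.28 within normal glands, and the gap between tumours and normal glands was 1.12 (log2 change -1.38, SE 0.12, limma adjusted p = 0.00079). Pdha1 and Pdhb, the subunits of the E1 component, changed by -0.65 (SE 0.09) and -1.14 (SE 0.13).

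Each of the 4 genes that did not pass the test has a partner in the set that did. The pairing was made after the values were seen, so the within-array differences are a description without a test. Each pair sets a gene already lower in every tumour against a gene that was not called. Separation of tumours from normal glands in these differences therefore largely follows from that choice. Levels of different probe sets are not comparable, and only the shift of a difference between groups is read. Cpt2 minus Cpt1a was -0.92 ± 0.36 log2 units in metastatic and -0.73 ± 0.29 in non-metastatic tumours, against 1.16 ± 0.19 in normal glands (SD, n = 3 each). Eci1 minus Eci2 was -0.70 ± 0.13 in metastatic and -0.77 ± 0.27 in non-metastatic tumours, against 0.40 ± 0.27 in normal glands. Idh3a minus Idh2 was -0.37 ± 0.21 in metastatic and -0.16 ± 0.28 in non-metastatic tumours, against 0.68 ± 0.45 in normal glands. In all of these pairs every tumour lay below every normal gland. The same held for Sucla2 minus Suclg2, at -1.58 ± 0.01 in metastatic and -1.80 ± 0.36 in non-metastatic tumours, against -0.55 ± 0.52 in normal glands. The partner taken mattered for Idh2, as Idh3a fell most of the Idh3 subunit genes. With Idh3b in its place, the difference in non-metastatic tumour 2 (11.39 and 10.02) would slightly exceed that in normal gland 3 (11.68 and 10.33). Normal glands 1 and 3 taken alone measured 0.95 and 1.31 for Cpt2 minus Cpt1a, 0.30 and 0.20 for Eci1 minus Eci2, 0.70 and 0.22 for Idh3a minus Idh2, and -0.59 and -1.06 for Sucla2 minus Suclg2.

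**Figure D3:**
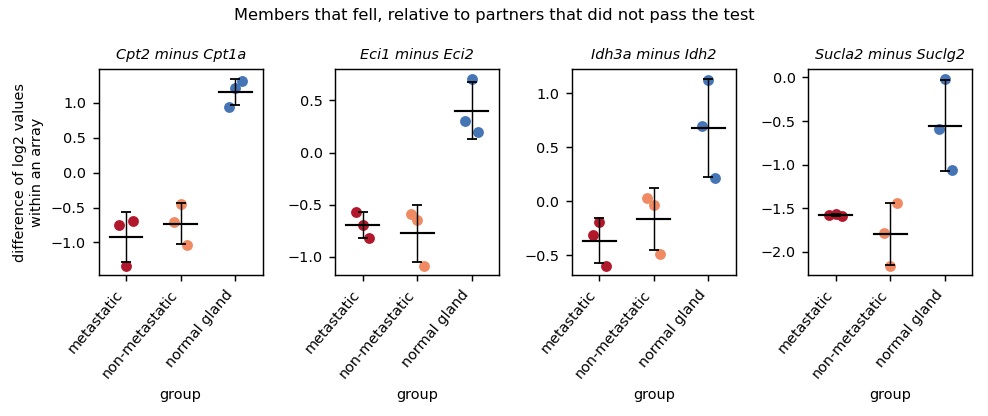
Difference of log2 values within each array between a gene that fell and its partner that did not pass the test (vertical axis, log2 units), with points for arrays and bars for mean and SD over 3 arrays. In each panel the 6 tumours lie below the 3 normal glands, as for Cpt2 minus Cpt1a, whose highest tumour was at -0.45 and lowest normal gland at 0.95. The pairs were chosen after the values were seen, and this separation largely follows from that choice.

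Most of the 36 genes also fell when each tumour group was set against normal glands by itself. In metastatic tumours 34 of the 40 genes fell and none rose, where 6% of all genes were lower and 7.35% higher, with a median log2 change of -1.10. In non-metastatic tumours 35 fell and none rose, where 7.6% of all genes were lower and 11.2% higher, with a median of -1.0. Both comparisons share the normal glands, and without normal gland 2 each gave 30 genes. Other arrays mattered as well. Of the 9 fits with 1 array left out, only 1 kept the call of Mdh2 in non-metastatic tumours. Only 4 of the 9 kept Etfa, Idh3b, Mdh2 or Pdk4 in metastatic tumours. Acadl, which fell in the comparison of both tumour groups, did not pass in either alone (limma adjusted p = 0.063 for metastatic and 0.067 for non-metastatic tumours), nor did Sdhc in metastatic tumours (0.12). Pcx changed by -3.31 in metastatic and -3.29 in non-metastatic tumours, and Cpt2 by -1.69 and -1.72.

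Metastatic and non-metastatic tumours were compared directly, which is the contrast named in the title of the study, and no gene of the set passed the test. None of the 40 was called by limma at an adjusted p of 0.05, where 0.00572% of all genes were, and none had an unadjusted p under 0.05, where 5.07% of all genes did. The lowest adjusted p was 0.88. The median log2 change was -0.048, against -0.019 for all genes, and 37 of the 40 changes were within 0.3 of 0. The median of the 40 genes was -0.12 without metastatic tumour 1, 0.0043 without metastatic tumour 2, -0.033 without metastatic tumour 3, -0.0079 without non-metastatic tumour 2, -0.11 without non-metastatic tumour 3 and -0.11 after median centring, so its sign was not stable. The 95% interval stayed within 1 log2 unit of 0 for 39 genes and within 0.5 for 21. The 2 tumour groups did not overlap for Acads, Idh3a, Sdha and Sdhc, 4 of the 40, where 10.3% of all genes did not overlap.

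The 5 largest differences between the tumour groups are given with their values. Acads measured 8.63, 8.37 and 8.49 in metastatic tumours and 9.11, 8.89 and 8.64 in non-metastatic tumours, against 9.52, 9.93 and 9.43 in normal glands. Metastatic tumours were all lower than non-metastatic ones, though metastatic tumour 1 only by 0.01 log2 units (log2 change -0.38, 95% interval -0.77 to 0.01, limma adjusted p = 0.88). Sdhc, the cytochrome b subunit of succinate dehydrogenase, measured 9.82, 9.80 and 9.79 in metastatic tumours and 9.68, 9.20 and 9.73 in non-metastatic tumours, against 10.15, 10.45 and 10.10 in normal glands. Metastatic tumours were all higher, and non-metastatic tumour 2 was the lowest array (log2 change 0.27, 95% interval -0.11 to 0.64, limma adjusted p = 0.88). Suclg1 measured 8.79, 8.47 and 8.51 in metastatic tumours and 8.86, 9.12 and 8.69 in non-metastatic tumours, against 9.71, 10.28 and 9.58 in normal glands, and its tumour groups overlapped (log2 change -0.31, 95% interval -0.77 to 0.16, limma adjusted p = 0.88). For Ogdh and Pdk4, whose values are given above, the tumour groups overlapped as well. Ogdh was higher on average in metastatic tumours (log2 change 0.24, 95% interval -0.17 to 0.64, limma adjusted p = 0.89). Pdk4 had the widest interval of the set (log2 change 0.66, 95% interval -0.64 to 1.97, limma adjusted p = 0.9). Single arrays moved these differences. Without non-metastatic tumour 2 that of Pdk4 was 1.19, of Ogdh 0.13, of Sdhc 0.097 and of Suclg1 -0.19. Pdk4 differed by 0.22 without metastatic tumour 1 and by 0.35 without non-metastatic tumour 1, and Ogdh by 0.11 without metastatic tumour 2. No tumour was consistently at one end: metastatic tumour 2 was the lowest tumour for 14 genes and metastatic tumour 3 for 11, while metastatic tumour 1 was the highest for 13 and non-metastatic tumour 2 for 11. Non-metastatic tumour 1 had the highest white adipocyte marker level of the tumours, at 8.48, and a mean of 9.65 over the 40 genes, inside the 9.53 to 9.76 of the other tumours.

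Genes around the pathway moved unevenly between both tumour groups and normal glands, where 9.13% of all genes tested fell and 13.6% rose. Of 12 genes of fatty acid uptake and activation, 5 fell and none rose, with a median of -0.49: the fatty acid translocase gene Cd36 changed by -3.87, the transporter genes Slc27a1 and Slc27a2 by -1.89 and -1.54, and carnitine acetyltransferase, Crat, by -1.79. The fifth, the acyl-CoA synthetase gene Acsl5, changed by -0.82 and is named after its value was seen; its call was lost without normal gland 2 (limma adjusted p = 0.092), where 4 of the 12 fell. Of 13 genes of peroxisomal beta-oxidation, which shortens very long chains, 7 fell and none rose, with a median of -0.59. The largest changes were those of the transporter gene Abcd2 at -5.18, Ehhadh, the peroxisomal bifunctional enzyme, at -1.29, the thiolase gene Acaa1b at -1.01 and Hsd17b4, a multifunctional enzyme, at -0.86. Without normal gland 2, 3 of the 13 fell, and without normal gland 1, 4 fell. The call of Ehhadh was lost without any single normal gland (limma adjusted p = 0.057 to 0.067).

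Among 17 transcriptional and AMP-kinase regulators, 6 fell and 1 rose (against 9.13% and 13.6% of all genes tested), with a median of -0.30. Pparg, the adipocyte nuclear receptor, measured 5.81, 6.20 and 5.74 in metastatic tumours and 6.00, 5.42 and 6.32 in non-metastatic tumours, against 10.70, 11.03 and 9.92 in normal glands, and changed by -4.63. The tumours lay near the array medians and far below every normal gland. Acacb, the mitochondrial acetyl-CoA carboxylase whose malonyl-CoA inhibits the carnitine shuttle, changed by -3.50, Ppara, the nuclear receptor of fasting liver, by -1.54, and Mlycd, malonyl-CoA decarboxylase, by -0.73. Nrf1, nuclear respiratory factor 1, rose by 0.40, a call lost without normal gland 1 (limma adjusted p = 0.059) or 2 (0.052), and is named after its value was seen. Without normal gland 2, 3 of the 17 fell and none rose, the median was -0.17, and the call of Mlycd was among those lost (limma adjusted p = 0.078).

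Of 21 other genes of pyruvate, TCA intermediates and their refilling, 9 fell and 2 rose (against 9.13% and 13.6% of all genes tested), with a median of -0.48. Those that fell most were Pck1, cytosolic phosphoenolpyruvate carboxykinase, at -5.36, Mpc1, a subunit of the mitochondrial pyruvate carrier, at -1.99, Me1, cytosolic malic enzyme, at -1.90, and Pdhx, the E3-binding protein of the pyruvate dehydrogenase complex, at -1.07. The call of Me1 was lost without any single normal gland (limma adjusted p = 0.067 to 0.088). The 2 that rose, named after their values were seen, were Got2, mitochondrial aspartate aminotransferase, at 0.79, and Pck2, the mitochondrial carboxykinase, at 0.53. Got2 measured 11.57, 11.60 and 11.34 in metastatic tumours and 11.64, 11.50 and 11.42 in non-metastatic tumours, against 10.72, 10.52 and 10.93 in normal glands, and every tumour was above every normal gland. The call of Pck2 was lost without any single array except normal gland 1 (limma adjusted p = 0.050 to 0.18). Leaving out normal gland 2, 7 of the 21 fell and 1 rose. Of 3 genes of ketone body metabolism, 1 fell, the thiolase gene Acat1 at -0.57, a call lost without normal gland 1 or 2 (limma adjusted p = 0.078 for each). The other 2 did not pass.

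Members of other mitochondrial pathways fell too, in the comparison where 9.13% of all genes tested fell and 13.6% rose. Of 24 genes of the respiratory chain and ATP synthase, 17 fell and none rose, with a median of -0.59; Cyc1 changed by -0.95, Ndufs1 by -0.93, Ndufa10 by -0.91 and Cycs, cytochrome c, by -0.91. The count was 11 of 24 without normal gland 2. Of 19 genes of branched-chain amino acid oxidation, 12 fell and none rose, with a median of -0.76, and without normal gland 2, 10 fell. Those with the largest change were Bckdhb, a subunit of the branched-chain ketoacid dehydrogenase, at -1.70, Pcca, a propionyl-CoA carboxylase subunit, at -1.51, Aldh6a1, of valine breakdown, at -1.50, and Mccc1, of leucine breakdown, at -1.48.

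Of 19 genes of mitochondrial import, channels and biogenesis, 1 fell and 3 rose (against 9.13% and 13.6% of all genes tested). The median log2 change of the 19 was 0.044, that of all genes tested, and it was 0.075 without normal gland 2 and -0.019 without normal gland 1. Tomm20, a receptor of the outer-membrane import pore, measured 9.29, 9.24 and 9.31 in metastatic tumours and 9.41, 9.54 and 9.46 in non-metastatic tumours, against 8.82, 8.64 and 8.90 in normal glands. Every tumour was above every normal gland (log2 change 0.59, SE 0.09, limma adjusted p = 0.0045). Tomm22 at 0.35 and Tomm70a at 0.25, also of the outer membrane, rose, and Timm23, of the inner-membrane pore, fell, at -0.34. Each of those 3 calls was lost without any of several single arrays (limma adjusted p = 0.051 to 0.16), and without normal gland 2 Tomm20 alone passed. White and brown adipocyte markers, whose part in these differences was not tested, are drawn in the same plot.

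**Figure D4:**
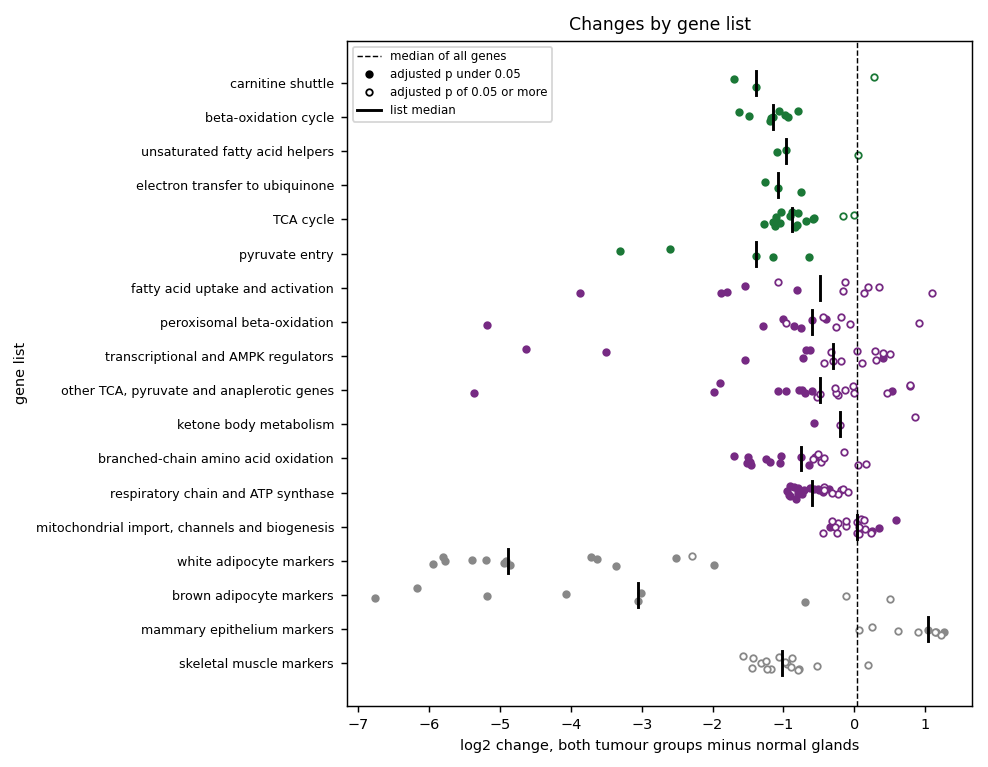
Log2 change in both tumour groups against normal glands (horizontal axis) for each gene of the 6 role groups (green), the surrounding lists (purple) and the marker lists (grey); filled points passed the test and bars are list medians. The role groups of the set have medians of -0.88 to -1.38, the white adipocyte markers -4.89 and the import genes 0.044, at the median of all genes.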

How the data were processed

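RNA of 9 mammary samples was hybridised to Affymetrix Mouse Gene 2.0 ST arrays, 1 per mouse. The log2 values used are those the authors deposited, made with RMA per the submitters' processing notes. The sources used here give neither the RMA version nor the genome build. The deposited table holds 41345 probe sets, of which 23521 carry 1 gene symbol in the platform annotation (22180 genes). For the 1082 genes with several, the probe set with the highest mean was taken. Genes that exceeded the 30th percentile of 3 or more arrays were kept, 17478 in all. Array intensities carry no read depth, so precision rests on the number of arrays.

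Groups came from the sample titles, which call the mice of a group biological replicates. A model with 1 mean per group was fitted in limma 3.58.1 (R 4.3.3) over all 9 arrays, with 6 residual degrees of freedom and eBayes. Tests were two-sided, with Benjamini-Hochberg adjustment over all genes tested and a threshold of 0.05. The fit was tested on simulated data. The 40 genes, the surrounding lists and the marker lists were chosen with earlier results of these data known. Values in every array are given for the 12 genes with the largest called change against normal glands, for the 5 with the largest change between tumour groups and for those that did not pass. Up to 4 called genes are named per surrounding list, and genes named outside these rules are said to be. Adipoq, Pparg, Got2 and Tomm20 are also given with values in every array, outside these rules. Promoter windows come from RefSeq, and no coordinates of probe sets were used. Alternatives covered the filter, probe set choice, normalisation, the eBayes options, array weights, the samples in the fit, the threshold, the replicate number, age and each array left out. Some genes of the surrounding and marker lists are not reported here.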

Additional observations from a re-analysis of the deposited data

How the results depend on the processing

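Requiring a log2 change of at least 1 lowered the count of the 40 genes that fell to 20 for non-metastatic tumours and to 22 for both tumour groups against normal glands, by its construction. The count for metastatic tumours was lowered too, as it then left out called genes such as Idh3g, at -0.70. Leaving out each array in turn gave 33 to 36 genes for both tumour groups, 23 to 35 for metastatic and 29 to 35 for non-metastatic tumours against normal glands. The lowest count for metastatic tumours came without metastatic tumour 3. With the replicate number as a block, 34, 31 and 33 genes fell in these comparisons and 0 differed between the tumour groups. The numbers name different mice, and the deviations of same-numbered arrays correlated between -0.28 and 0.17 over genes, so they were not taken as pairs. The median between the tumour groups turned sign without metastatic tumour 2. The counts and named genes kept their direction in the alternatives run, and no alternative called any of the 40 genes between the tumour groups. With 3 arrays per group, the median half-width of the 95% interval for that difference was 0.39 log2 units. Those intervals are for single genes without adjustment, while calls needed an adjusted p under 0.05 over all genes tested. Differences larger than 0.39 could therefore also be missed, and the lack of calls does not exclude them.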
